A study of Arabidopsis thaliana with 8 samples.

Results

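The genes described here encode the enzymes that make heme and the proteins that build iron-sulfur clusters, the main pair of cofactors into which a plant cell puts its iron. They were chosen as a list of 35 loci of Arabidopsis thaliana, of which 15 belong to tetrapyrrole and heme metabolism and 20 to iron-sulfur cluster assembly in plastids and mitochondria. A locus counted as measured when the array annotation gave it a probe set that names no other gene. That held for 8 of the 35 loci, out of 13286 loci with such a probe set on the whole array, and each of the 8 had 1 probe set. Of the heme side 5 were measured (HEMA2, GSA1, HEMB1, HEME1 and HEME2) and of the iron-sulfur side 3 (NFS2, which the gene table calls CPNIFS, ISU1 and HCF101).

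Tetrapyrrole synthesis in plants starts in the plastid from glutamate bound to its transfer RNA, which is turned into 5-aminolevulinate. Molecules of 5-aminolevulinate are joined into porphobilinogen, porphobilinogen units into a ring, and the ring is trimmed and oxidised to protoporphyrin, into which ferrochelatase inserts ferrous iron to give heme. Iron-sulfur clusters are built in parallel by a plastid pathway named SUF and a mitochondrial pathway named ISC: a cysteine desulfurase supplies sulfur, a scaffold holds the new cluster, and carrier proteins hand it to the enzymes that need it. Roots have little chlorophyll, so their tetrapyrroles serve mostly heme and siroheme.

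RNA came from whole roots of the Columbia ecotype, aged 7 days after germination, and was hybridised to 8 arrays of 1 colour. The 4 groups of 2 arrays were wild type with iron (WT +Fe), wild type without iron (WT -Fe), the mutant pye-1 with iron (pye-1 +Fe) and pye-1 without iron (pye-1 -Fe). The mutant carries the pye-1 allele of the gene POPEYE (PYE), whose product is a transcription factor with a basic helix-loop-helix domain that acts when iron is short. All plants were germinated on medium with chelated ferric iron and then spent 24 h either on medium with iron or on medium in which the iron had been replaced by 0.3 mM ferrozine, which binds ferrous iron. Each array holds RNA pooled from about 320 roots, the labels call the 2 arrays of a group biological replicates, and 1 mutant allele was studied.

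Differences are given as log2 differences of MAS5 signal, a linear brightness value per probe set, ± the standard error of a limma fit over all 8 arrays. A difference passed at a Benjamini-Hochberg adjusted p below 0.05 over the 15922 probe sets tested, and intervals are 95% intervals of that fit, not adjusted for the number of genes. Precision is limited by the number of arrays. In whole roots, fewer cells that express a gene and less RNA per cell cannot be told apart. The 9 iron-response genes S8H, MTP8, AT3G07720, BGLU42, F6H1, BHLH101, AT1G47400, BTSL1 and PYE were picked with their values in these data known. Of their 10 probe sets, 8 passed as higher without iron in wild type and 9 in pye-1. F6H1 and PYE did not pass in wild type (adjusted p = 0.154 and 0.0819), nor did PYE in pye-1 (0.545). PYE itself read 56.7 and 65.1 signal units in WT +Fe and 138 and 149 in WT -Fe, against 19.1 and 15.0 in pye-1 +Fe and 25 and 28.2 in pye-1 -Fe. No source read here says whether that probe set covers the site of the pye-1 lesion, so the mutant readings cannot be taken as a level of intact transcript. The pye-1 +Fe readings of PYE also lay close to the highest bacterial control signal of their arrays (18.7 and 12.8). Of 15 root markers 3 were measured (EXPA7, EXPA18 and PYK10). Their summed signal was 11429 to 13950 in WT +Fe, 13338.5 to 13794 in WT -Fe, 13962 to 15252 in pye-1 +Fe and 14347 to 15099 in pye-1 -Fe. Both pye-1 groups lay above both wild-type groups. PYK10 made up most of the sum (10373 to 14214 over the 8 arrays). Its genotype difference over both media did not pass (0.19 ± 0.09, adjusted p = 0.745). Of 15 green tissue markers 3 were measured. Their summed signal was 888 to 920 in WT +Fe, 647 to 674 in WT -Fe, 750 to 802 in pye-1 +Fe and 566 to 629 in pye-1 -Fe, and none of the measured markers lay at the control level (the highest signal of bacterial control probe sets on an array). Averaged over both genotypes, PSAN, a photosystem I subunit, fell without iron by 0.84 (adjusted p = 0.00495) and the root hair gene EXPA18 by 0.75 (adjusted p = 0.00828). In wild type alone each fell by 0.93 (adjusted p = 0.0372 and 0.0311), and both calls were lost without the intensity trend (0.0582 and 0.125). Leaving out any 1 wild-type array ended the PSAN call, with changes of -1.04 to -0.83. The EXPA18 call ended without WT +Fe replicate 1 or either WT -Fe array, with changes of -1.02 to -0.71. That of PSAN was also lost without either pye-1 -Fe array and with no filter on low signal (0.0767). Since several members act in plastids, these green tissue values are printed here for all comparisons below, and are repeated only for HCF101. Their part in the results was not tested.

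None of the 8 genes passed in any of 7 contrasts: without against with iron in each genotype and averaged over both, the mutant against wild type with iron, without iron and averaged over both media, and the interaction. In the same fits 0.973% of all tested probe sets passed for the iron response in wild type, 1.05% for the iron response in pye-1, 0.0628% for pye-1 against wild type with iron and 0.465% without iron. The shares were 0.0879% for the interaction, 1.87% for the averaged iron response and 0.383% for the averaged genotype difference. At an unadjusted p under 0.05 in limma, 0 of the 8 genes stood out in the wild-type iron response (8.73% of all tested probe sets), 2 in that of pye-1 (8.58%), 0 between genotypes with iron (5.63%), 1 without iron (6.99%) and 0 in the interaction (5.75%). For the averages these counts were 0 for iron (10.5%) and 1 for genotype (6.85%). All 8 genes were tested, and their signals were at least 3.89 times the control level of the same array. Comparisons that use the same group share its arrays and are not independent.

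**Figure D1:**
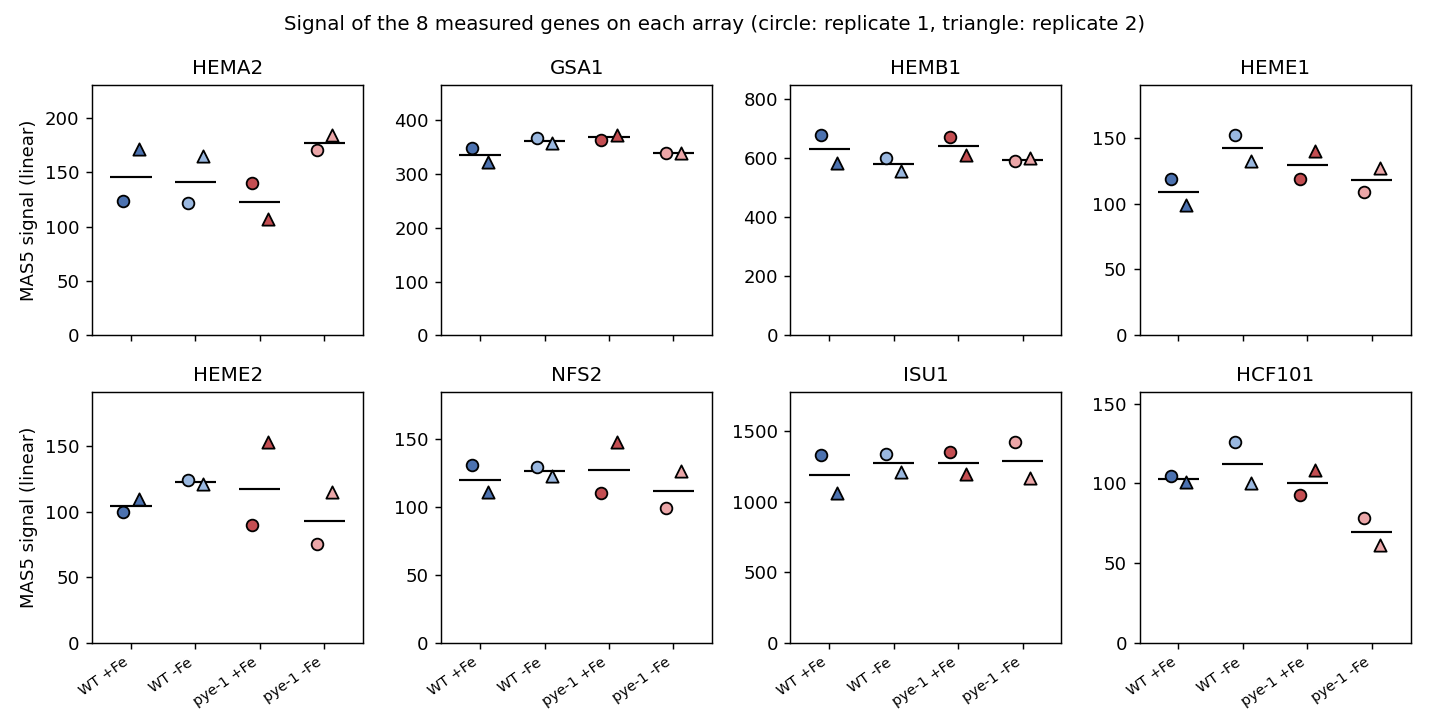
MAS5 signal on a linear scale (vertical axis, arbitrary units) of each of the 8 measured genes in the 4 groups (horizontal axis). Each point is 1 array, circles are replicate 1 and triangles replicate 2, and bars are means of the log2 values; GSA1 varies 1.16-fold over all arrays, HCF101 2.06-fold, and the lowest HCF101 readings are the 2 pye-1 -Fe arrays.

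The first steps lead to 5-aminolevulinate, and 2 of their 4 listed genes were measured. HEMA2 (AT1G09940) encodes a glutamyl-tRNA reductase, the enzyme of the first committed step, and is known as the form used in roots and other non-green tissue. Its signal was 124 and 171 in WT +Fe, 122 and 165 in WT -Fe, 140 and 107 in pye-1 +Fe, and 171 and 184 in pye-1 -Fe. The wild-type groups overlapped almost completely, while both pye-1 -Fe arrays lay above both pye-1 +Fe arrays. The iron response was -0.04 ± 0.22 in wild type (95% interval -0.54 to 0.46, adjusted p = 0.988). In pye-1 it was 0.53 ± 0.22 (0.04 to 1.03, unadjusted p = 0.0382), which did not pass (adjusted p = 0.541), with 0.28 in replicate 1 and 0.78 in replicate 2. The difference between these responses was 0.57 ± 0.32 and did not pass either (adjusted p = 0.885). Averaged over both genotypes, the iron response of HEMA2 was 0.25 ± 0.16 (adjusted p = 0.682).

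GSA1 (AT5G63570) encodes glutamate-1-semialdehyde aminotransferase, which makes 5-aminolevulinate itself. It was the steadiest of the 8, with a signal of 350 and 322 in WT +Fe, 368 and 357 in WT -Fe, 364 and 373 in pye-1 +Fe, and 340 and 339 in pye-1 -Fe. In each of the 4 comparisons of 2 groups its arrays did not overlap, yet the differences ran only from -0.12 to 0.13. The iron response was 0.11 ± 0.13 in wild type (-0.17 to 0.39) and -0.12 ± 0.13 in pye-1 (-0.40 to 0.17), with adjusted p of 0.915 and 0.893. Between genotypes the difference was 0.13 ± 0.13 with iron and -0.09 ± 0.13 without (adjusted p = 0.997 and 0.975).

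The ring is assembled by the next enzymes, of which 3 of 8 listed genes were measured. HEMB1 (AT1G69740) encodes 5-aminolevulinate dehydratase, which forms porphobilinogen. Its signal was 678 and 584 in WT +Fe, 601 and 556 in WT -Fe, 670 and 609 in pye-1 +Fe, and 588 and 600 in pye-1 -Fe. Readings without iron lay towards the low end in both genotypes, and the groups with and without iron overlapped in wild type but not in pye-1. The iron response was -0.12 ± 0.13 in wild type (-0.41 to 0.17) and -0.11 ± 0.13 in pye-1 (-0.40 to 0.19), with adjusted p of 0.906 and 0.912. HEMB1 in pye-1 differed from wild type by 0.02 ± 0.13 with iron and 0.04 ± 0.13 without (adjusted p = 0.999 and 0.991).

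HEME1 (AT3G14930) and HEME2 (AT2G40490) encode forms of uroporphyrinogen III decarboxylase, which trims the side chains of the ring to give coproporphyrinogen III. HEME1 read 119 and 99.3 in WT +Fe, 152 and 132 in WT -Fe, 119 and 140 in pye-1 +Fe, and 109 and 127 in pye-1 -Fe. Both WT -Fe arrays were above both WT +Fe arrays, by 0.36 in replicate 1 and 0.42 in replicate 2, and the pye-1 groups overlapped. The iron response of HEME1 was 0.39 ± 0.19 in wild type (-0.03 to 0.80, adjusted p = 0.617) and -0.13 ± 0.19 in pye-1 (-0.55 to 0.28, adjusted p = 0.927), and the interaction of -0.52 ± 0.27 did not pass (adjusted p = 0.878). Between genotypes HEME1 differed by 0.25 ± 0.19 with iron and -0.27 ± 0.19 without (adjusted p = 0.997 and 0.907).

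HEME2 read 100 and 109 in WT +Fe, 125 and 121 in WT -Fe, 89.7 and 153 in pye-1 +Fe, and 75.2 and 115 in pye-1 -Fe. The 2 pye-1 arrays of a medium lay far apart, replicate 2 being the higher one on both media, and HEME2 had the largest standard error of the 8. Its iron response was 0.23 ± 0.27 in wild type (adjusted p = 0.921) and -0.33 ± 0.27 in pye-1 (adjusted p = 0.837). Within replicate numbers it was 0.32 and 0.15 in wild type and -0.25 and -0.41 in pye-1, and the interaction was -0.57 ± 0.39 (-1.43 to 0.29, adjusted p = 0.925). Between genotypes HEME2 differed by 0.16 ± 0.27 with iron and -0.40 ± 0.27 without (adjusted p = 0.997 and 0.904). Intervals this wide leave room for a 1.79-fold higher signal of HEME2 in wild type without iron.

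Of the genes of plastid cluster assembly, 1 of 6 was measured. NFS2 (AT1G08490) encodes the plastid cysteine desulfurase, which releases sulfur from cysteine for the SUF scaffold. It read 131 and 111 in WT +Fe, 130 and 123 in WT -Fe, 110 and 148 in pye-1 +Fe, and 99.1 and 126 in pye-1 -Fe. All of its groups overlapped, and the spread of the pye-1 +Fe arrays covered every wild-type reading. The iron response of NFS2 was 0.07 ± 0.21 in wild type (-0.39 to 0.53) and -0.19 ± 0.21 in pye-1 (-0.65 to 0.27), with adjusted p of 0.972 and 0.894. The genotypes differed by 0.08 ± 0.21 with iron and -0.17 ± 0.21 without (adjusted p = 0.997 and 0.972).

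In mitochondria, 1 of 5 listed genes was measured. ISU1 (AT4G22220) encodes the main scaffold on which mitochondrial clusters are assembled. It read 1332 and 1063 in WT +Fe, 1338 and 1210 in WT -Fe, 1354 and 1194 in pye-1 +Fe, and 1421 and 1171 in pye-1 -Fe. Replicate 1 was above replicate 2 in all 4 groups, a gap larger than any difference between groups, and the 4 groups overlapped. The iron response of ISU1 was 0.10 ± 0.15 in wild type (-0.24 to 0.43) and 0.02 ± 0.15 in pye-1 (-0.32 to 0.36), with adjusted p of 0.941 and 0.987. Between genotypes ISU1 differed by 0.10 ± 0.15 with iron and 0.02 ± 0.15 without (adjusted p = 0.997 and 0.995).

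Among 9 carrier genes HCF101 was the measured one. HCF101 (AT3G24430) is a plastid protein that carries clusters and is needed in leaves to complete photosystem I. Its signal was 104 and 101 in WT +Fe, 126 and 100.0 in WT -Fe, 92.4 and 108 in pye-1 +Fe, and 78.5 and 61.2 in pye-1 -Fe. The pye-1 -Fe arrays were the lowest of the 8 and overlapped with no other group, while the other 3 groups overlapped. Without iron, HCF101 in pye-1 differed from wild type by -0.69 ± 0.21 (95% interval -1.16 to -0.22, a 0.618-fold signal), by -0.68 in replicate 1 and -0.71 in replicate 2. Its unadjusted p was 0.00803 and it did not pass over all probe sets (adjusted p = 0.363). With iron the genotypes differed by -0.04 ± 0.21 (adjusted p = 0.999).

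The iron response of HCF101 was 0.13 ± 0.21 in wild type (adjusted p = 0.944) and -0.53 ± 0.21 in pye-1 (-1.0 to -0.06, adjusted p = 0.502), with -0.23 in replicate 1 and -0.83 in replicate 2 of pye-1. The interaction of -0.66 ± 0.30 did not pass (adjusted p = 0.870), nor did the averages over genotypes (-0.20 ± 0.15, adjusted p = 0.753) and over media (-0.36 ± 0.15, adjusted p = 0.643). The summed signal of the 3 green tissue markers was also lowest in pye-1 -Fe (566 to 629), but not that of each marker: between genotypes without iron RCA differed by -0.10 ± 0.17, LHCB4.1 by -0.24 ± 0.15 and the photosystem I subunit PSAN by 0.07 ± 0.18 (adjusted p = 0.979, 0.876 and 0.989). Their part in the HCF101 values was not tested.

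**Figure D2:**
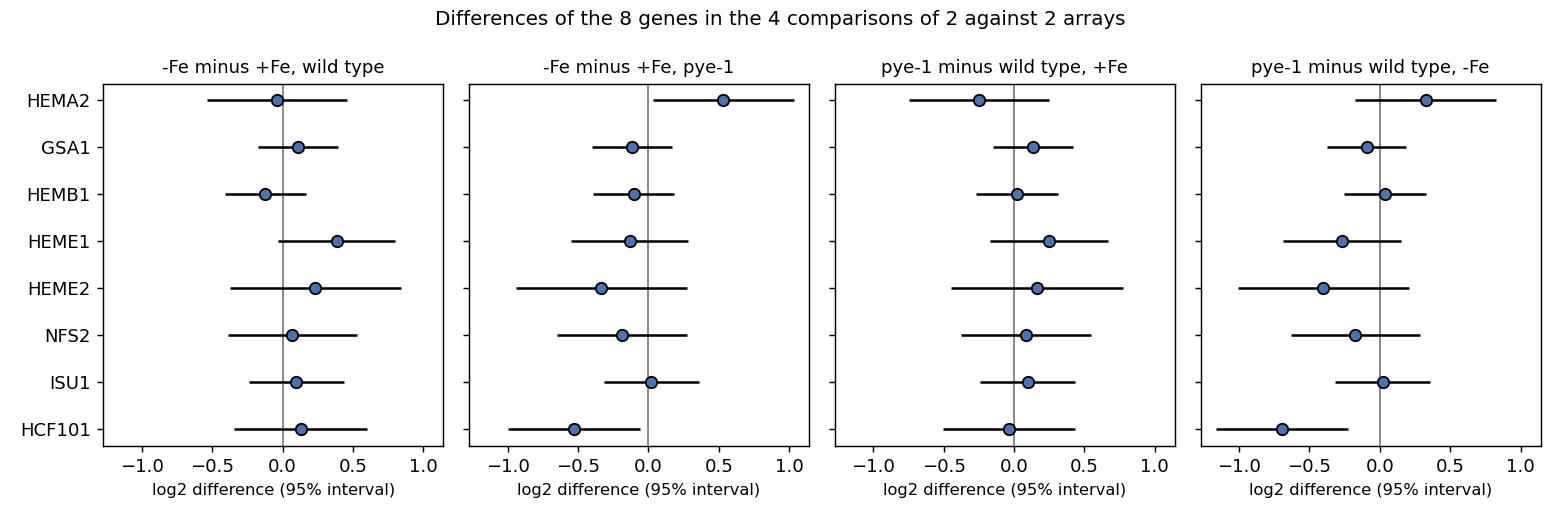
Log2 differences (horizontal axis) of the 8 genes (vertical axis) in the 4 comparisons of 2 groups, with 95% intervals of the limma fit over 8 arrays. Points right of the line at 0 are higher without iron (the panels on the iron response) or in pye-1 (the panels on genotype); the intervals of HEMA2 and HCF101 in pye-1 and of HCF101 between genotypes without iron do not reach 0, and none of the differences passed after adjustment.

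Across the 8 genes, the median iron response was 0.10 in wild type and -0.12 in pye-1, against 0.00 and -0.04 over all tested probe sets. The differences ran from -0.12 to 0.39 in wild type and from -0.53 to 0.53 in pye-1. In 5 genes (GSA1, HEME1, HEME2, NFS2 and HCF101) the value was above 0 in wild type and below 0 in pye-1, a pattern that 27.2% of all tested probe sets showed, and in HEMA2 it was the other way round. In 4 of these 6 (HEMA2, GSA1, HEME1 and HEME2) both replicates had the same sign within each genotype. None of the 8 interactions passed, so these opposite signs are not shown to be differences between the genotypes.

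The groups did not overlap for 3 genes in the wild-type iron response and for 4 in that of pye-1, where 37.5% and 36.1% of all tested probe sets did not overlap. Between genotypes they did not overlap for 1 gene with iron (31.7%) and for 5 without (36.0%). No gene separated the 4 arrays with iron from the 4 without (6.18% of all tested probe sets did), and none separated the genotypes over both media (3.21%). Each interval covers 1 gene, so the outermost bounds are not joint limits on what could have been missed. Averaged over both genotypes, no interval of the 8 genes went below a 0.691-fold or above a 1.51-fold signal without iron. In wild type alone the outermost bounds were 0.689-fold and 1.79-fold, and in pye-1 0.500-fold and 2.05-fold. Between genotypes they were 0.60-fold and 1.71-fold with iron, 0.446-fold and 1.77-fold without iron, and 0.617-fold and 1.31-fold over both media. For the interaction they were 0.372-fold and 2.42-fold.

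The remaining 27 loci have no probe set here that names them alone and were not analysed. Of 22746 probe sets other than array controls, 8730 name no gene in the annotation used. The lack of a named probe set therefore does not show that the array lacks these genes. On the heme side they are HEMA1, GSA2, HEMC, HEMD, LIN2, PPOX1, PPOX2, both ferrochelatase genes FC1 and FC2, and the heme oxygenase gene HO1, so the iron insertion and heme breakdown steps are not covered. On the iron-sulfur side they are NFS1, ISU2, CPISCA, SUFB, SUFC, SUFD, SUFE1, NFU1 to NFU5, GRXS14, GRXS15, GRXS16, ATM3 and FH, which encodes frataxin.

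The other genes of both pathways, from lists that hold none of the 8, gave no calls either. Depending on the contrast, 0.0628% to 1.87% of all tested probe sets passed, so no calls among so few genes does not set them apart. Of 24 further tetrapyrrole loci 6 had a probe set and 5 were tested, and none passed in any contrast. SIRB, the ferrochelatase that inserts iron to give siroheme, read 316 and 330 in WT +Fe, 305 and 277 in WT -Fe, 325 and 319 in pye-1 +Fe, and 292 and 256 in pye-1 -Fe. Without iron every SIRB array was below every array with iron, and the same held for CHLM, a methyltransferase of the chlorophyll branch. Of all tested probe sets, 6.18% separated the media in either direction. The averaged response was -0.19 ± 0.10 for SIRB and -0.28 ± 0.10 for CHLM, and neither passed (adjusted p = 0.546 and 0.339). PORB, which reduces protochlorophyllide, differed between genotypes without iron by -0.59 ± 0.33 (adjusted p = 0.840). The median averaged response of the 5 was -0.22, against -0.02 over all tested probe sets.

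Of 26 further loci of iron-sulfur assembly 9 were measured and tested, and none passed in any contrast. ATR3, a reductase of the cytosolic pathway, had an iron response of -0.58 ± 0.20 in wild type (adjusted p = 0.371). ISCA4, an A-type carrier, differed between genotypes without iron by 0.35 ± 0.15 (adjusted p = 0.685), and SUFE2, an activator of the plastid desulfurase, by 0.25 ± 0.12 over both media (adjusted p = 0.781). The median averaged iron response of the 9 was 0.03.

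Proteins that carry these cofactors were also examined. Of 14 loci of heme proteins 6 were tested, and SAPX, an ascorbate peroxidase of plastids and mitochondria, was the one that passed. SAPX read 969 and 957 in WT +Fe, 550 and 492 in WT -Fe, 1115 and 1115 in pye-1 +Fe, and 914 and 908 in pye-1 -Fe. The WT -Fe arrays were the lowest by a wide margin, and no 2 groups overlapped. SAPX fell by 0.89 ± 0.12 without iron in wild type (adjusted p = 0.00400), and was higher in pye-1 than in wild type without iron by 0.81 ± 0.12 (adjusted p = 0.0139). Its averaged iron response was -0.59 ± 0.08 (adjusted p = 0.00347). In pye-1 the iron response of SAPX was -0.29 ± 0.12 (adjusted p = 0.507), and the interaction of 0.60 ± 0.17 did not pass (adjusted p = 0.598). Averaged over both media the genotype difference of SAPX was 0.51 ± 0.08 (adjusted p = 0.0277), a call that leaving out any 1 of the 8 arrays ended (0.0742 to 0.140), as did a fit without the intensity trend (0.153). Without WT -Fe replicate 2 the wild-type response was -0.81 (adjusted p = 0.0626). Leaving out any 1 of the 4 arrays without iron ended the genotype call on that medium, with adjusted p of 0.0770 to 0.152, as did a fit without the intensity trend (0.0941).

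Of 27 loci of iron-sulfur proteins 6 were tested, and none passed without the replicate block. SDH2-1 and SDH2-2, forms of the iron-sulfur subunit of succinate dehydrogenase, had lower signals in WT -Fe than in any other group. SDH2-1 read 1755 and 1933 in WT +Fe, 1550 and 1484 in WT -Fe, 1979 and 2147 in pye-1 +Fe, and 2249 and 2037 in pye-1 -Fe. SDH2-2 read 1079 and 1008, 866 and 811, 1128 and 1115, and 1121 and 1162 in the same groups. Neither gene's pye-1 -Fe arrays overlapped with its WT -Fe arrays, which held for 36.0% of all tested probe sets in either direction.

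Without iron the genotype difference was 0.50 ± 0.12 for SDH2-1 (adjusted p = 0.155, and 0.0180 with the replicate number as a block) and 0.45 ± 0.11 for SDH2-2 (0.211, and 0.0275 with the block). A further SDH2-1 probe set read at most 11.7 signal units and was not tested. THIC, an iron-sulfur enzyme of thiamine synthesis, went the other way, with a genotype difference without iron of -0.71 ± 0.17 (0.148, and 0.0242 with the block). Under the block, DHAD, a dehydratase of branched-chain amino acid synthesis, also fell without iron in pye-1 by 0.50 ± 0.17 (0.351, and 0.0369 with the block). Averaged over both media, the genotype differences of THIC (-0.45 ± 0.12) and SDH2-1 (0.33 ± 0.08) likewise passed with the block alone (0.0463 and 0.0270). The heme protein gene CYTC-2, which encodes cytochrome c, differed between genotypes without iron by 0.66 ± 0.23 (0.503, and 0.0180 with the block). The same difference of CYTC-2 over both media was 0.44 ± 0.17 (0.562, and 0.0281 with the block). TAPX, a thylakoid ascorbate peroxidase, read 37.0 and 68.6 in pye-1 +Fe and 34.0 and 5.63 in pye-1 -Fe. The last reading is below the control level of its array (11.7), so no difference is given, and the iron response in pye-1 did not pass (adjusted p = 0.440).

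**Figure D3:**
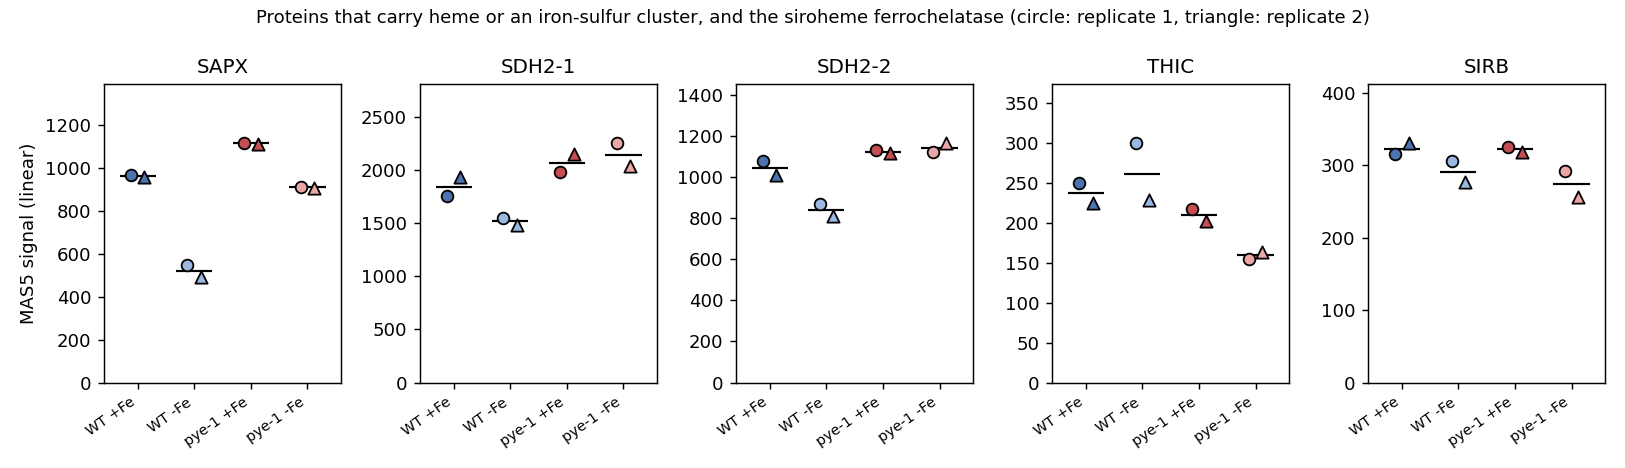
MAS5 signal on a linear scale (vertical axis, arbitrary units) of SAPX, SDH2-1, SDH2-2, THIC and SIRB in the 4 groups (horizontal axis). Circles are replicate 1, triangles replicate 2 and bars means of the log2 values; SAPX, SDH2-1 and SDH2-2 are lowest in WT -Fe, and THIC is lowest in pye-1 -Fe.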

How the data were processed

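The deposited tables hold MAS5 signal intensities, per the submitters' processing notes, on a linear scale. Their trimmed mean (2% off each end) was 250.02 on every array. No version or genome build is named in the sources read, and no coordinates are printed. Genes came from the platform annotation: of 22746 probe sets other than array controls, 13513 name 1 gene, 503 several and 8730 none.

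Each intensity was converted to log2. After removal of 64 control probe sets and the 30% of lowest mean log2 signal (below 23.3), 15922 remained for limma (version 3.58.1, under R 4.3.3): 1 mean per group, 7 contrasts, eBayes with intensity trend, 4 residual degrees of freedom plus 6.32 from the prior, and Benjamini-Hochberg adjustment. The procedure was tested on simulated data. Exact permutation was not used, since 2 arrays against 2 allow no p under 0.333. The control level of an array is its highest signal among 27 bacterial control probe sets, assumed to have received no spike. Values per array are given for each measured member. Of every further list, genes past the threshold and the 3 with the smallest p are named, and DHAD, which passed under the block, was added after its values were seen. Alternatives are given in the closing section.

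The 4 groups share replicate numbers. The signal of the 25S rRNA control probe set was 242 to 565 on replicate 1 arrays and 1691 to 4047 on replicate 2 arrays. What a replicate number marks is not given in the labels, and the cause of this split was not tested. Over all 6 pairs of groups, the residuals of arrays with one number correlated by 0.178 to 0.302, and the number was therefore fitted as a block in an alternative. Members and lists were chosen with earlier results of these data known.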

Additional observations from a re-analysis of the deposited data

How the results depend on the processing

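None of the 8 members passed in any of the 7 contrasts under any alternative: no filter, leaving out the lowest 50%, a pseudocount of 16, signals raised to the control level, quantile normalization, no intensity trend, the replicate block, or leaving out each of the 8 arrays (0 members each time). The lowest adjusted p of any member was 0.136, for HCF101 between genotypes without iron under the block. Over all tested probe sets the block raised the counts from 155 to 485 (iron response in wild type), 167 to 422 (in pye-1), 10 to 55 and 74 to 273 (genotypes with and without iron), 14 to 56 (interaction), 297 to 724 and 61 to 274 (averaged iron and genotype). Without the intensity trend the counts were 90 and 99 for the iron responses, 26 for the genotypes without iron, 0 for the interaction (962 at an unadjusted p under 0.05 in limma) and 29 for the averaged genotype difference. The interaction count was 8 with no filter and with the lowest 50% left out, which gave 5 for the genotypes with iron. The iron response in wild type gave 83 to 89 calls without WT +Fe replicate 1 or either WT -Fe array, and that in pye-1 87 to 109 without pye-1 +Fe replicate 2 or either pye-1 -Fe array. The genotypes without iron gave 20 to 45 without any 1 of the 4 arrays compared, and with iron 17 without WT +Fe replicate 1, 5 without WT +Fe replicate 2 and 6 without pye-1 +Fe replicate 2. The interaction gave 0 without WT -Fe replicate 1 or either pye-1 -Fe array (606 to 929 at an unadjusted p under 0.05) and 4 to 9 without any other array but pye-1 +Fe replicate 2 (10). Without WT -Fe replicate 2 the averaged iron response gave 196, and without WT -Fe replicate 1 the averaged genotype difference gave 37. Of the iron-sulfur proteins 0 passed, and 4 with the replicate block; of the heme proteins 1 passed, 2 with the replicate block, and 1 to 2 with 1 array left out. The block changed no call of a member. Of the 56 member differences (8 genes in 7 contrasts), quantile normalization reversed 4: for ISU1 the iron response in pye-1 became -0.016 and the genotype difference without iron -0.017, for GSA1 the averaged iron response became 0.0012, and for HEME1 the averaged genotype difference became 0.0062. Leaving out 1 array at a time reversed 28 of the 56, none of which had passed. The iron response in wild type ran from -0.27 to 0.20 for HEMA2, -0.049 to 0.19 for NFS2, -0.066 to 0.26 for ISU1 and -0.037 to 0.29 for HCF101. That in pye-1 ran from -0.72 to 0.052 for HEME2, -0.40 to 0.023 for NFS2 and -0.12 to 0.16 for ISU1. The averaged iron response ran from -0.032 to 0.026 for GSA1, -0.24 to 0.14 for HEME2, -0.17 to 0.046 for NFS2 and -0.023 to 0.14 for ISU1. The genotype difference with iron ran from -0.085 to 0.13 for HEMB1, -0.22 to 0.55 for HEME2, -0.13 to 0.30 for NFS2, -0.067 to 0.26 for ISU1 and -0.15 to 0.079 for HCF101. Without iron it ran from -0.017 to 0.095 for HEMB1, -0.35 to 0.0017 for NFS2 and -0.12 to 0.16 for ISU1. Averaged over media it ran from -0.079 to 0.16 for HEMA2, -0.0092 to 0.049 for GSA1, -0.023 to 0.084 for HEMB1, -0.075 to 0.054 for HEME1, -0.31 to 0.073 for HEME2, -0.15 to 0.061 for NFS2 and -0.023 to 0.14 for ISU1. The interaction ran from -0.091 to 0.12 for HEMB1 and -0.24 to 0.087 for ISU1. The cause was not tested. With 2 arrays a group, the data do not tell which of the values within a printed interval is the true difference.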
